A study of Mus musculus with 6 samples.

Results

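Expression of 10 genes of epidermal growth factor (EGF) signalling was followed in mouse embryonic fibroblasts: the ligand genes Areg, Ereg, Hbegf, Btc, Tgfa and Nrg1, the receptor genes Egfr, Erbb2 and Erbb3, and the inhibitor gene Errfi1. They were chosen by name, as the rows of the deposited expression table that carry these gene symbols, and all 10 were found among 23748 rows of 1 gene each. The platform annotation gave the symbol for 9 of them. The row of Areg had none there and was identified by its Entrez gene ID, which the RefSeq gene table pairs with Areg and the authors' deposited table with amphiregulin. The study compared 3 wild type samples with 3 samples of the knock-in FOG-2 Rb-, in which the transcriptional co-factor FOG-2, according to the series title, is unable to bind pRb, the retinoblastoma protein. All 6 were fibroblasts of E14.5 embryos that were still growing in the same medium with 20% donor bovine serum, and none had been made to differentiate. The wild type titles all hold the number 18 and the FOG-2 Rb- titles all hold the number 27. Its meaning is not stated, so what it marks and the genotype cannot be told apart. Samples are numbered as experiments 1 to 3 in each genotype, with no word on whether these were separate embryos. The p-values weigh the difference between genotypes against the spread within them. That spread may be only technical, so the p-values may not extend to other embryos.

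ErbB receptors are tyrosine kinases of the cell surface that pair up when a ligand binds. EGFR binds amphiregulin, TGF alpha, epiregulin, betacellulin and HB-EGF, ErbB3 binds neuregulins, and ErbB2 has no known ligand of its own and serves as a partner. The ligands are made as membrane proteins and released by metalloproteinases, and the receptors signal through the MAP kinase ERK and through PI3 kinase; in fibroblasts EGF is a classical mitogen.

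Median log2 expression lay between 5.65 and 5.73 in the 6 arrays. Correlations across genes were 0.997 to 0.998 between arrays of a genotype and 0.990 to 0.991 between arrays of different genotypes. The fibroblast marker Vim was at 13.3 to 13.4 in all 6 arrays, but others differed between the genotypes. Of 10 measured fibroblast markers 4 fell in FOG-2 Rb- cells and 2 rose. Those that fell, with log2 differences of FOG-2 Rb- minus wild type, were Dcn (-1.77), Pdgfra (-0.90), Thy1 (-0.78) and S100a4 (-0.74). Col1a1 (0.38) and Col3a1 (0.36) rose.

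FOG-2 Rb- fibroblasts had less mRNA of the ligands amphiregulin, epiregulin, HB-EGF and neuregulin 1 and more mRNA of the receptor EGFR. Of the 10 genes, 5 fell, 2 rose and 3 did not pass the test, limma's moderated test with Benjamini-Hochberg adjustment over all rows and a threshold of 0.05. Over the whole array 18% of rows passed, 8.59% lower and 9.44% higher in FOG-2 Rb-. The arrays of one genotype all lay above those of the other for 7 of the 10 genes, the same 7 that passed, and for 35.6% of all rows. The median log2 difference, FOG-2 Rb- minus wild type, was -0.13 over the 10 genes and -0.02 over all rows. With any 1 array left out, Areg, Ereg, Hbegf, Nrg1 and Egfr passed in all 6 fits, whereas Btc and Errfi1 passed in none. The genes were picked with earlier results of these arrays known, so these counts describe them and support nothing further.

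**Figure D1:**
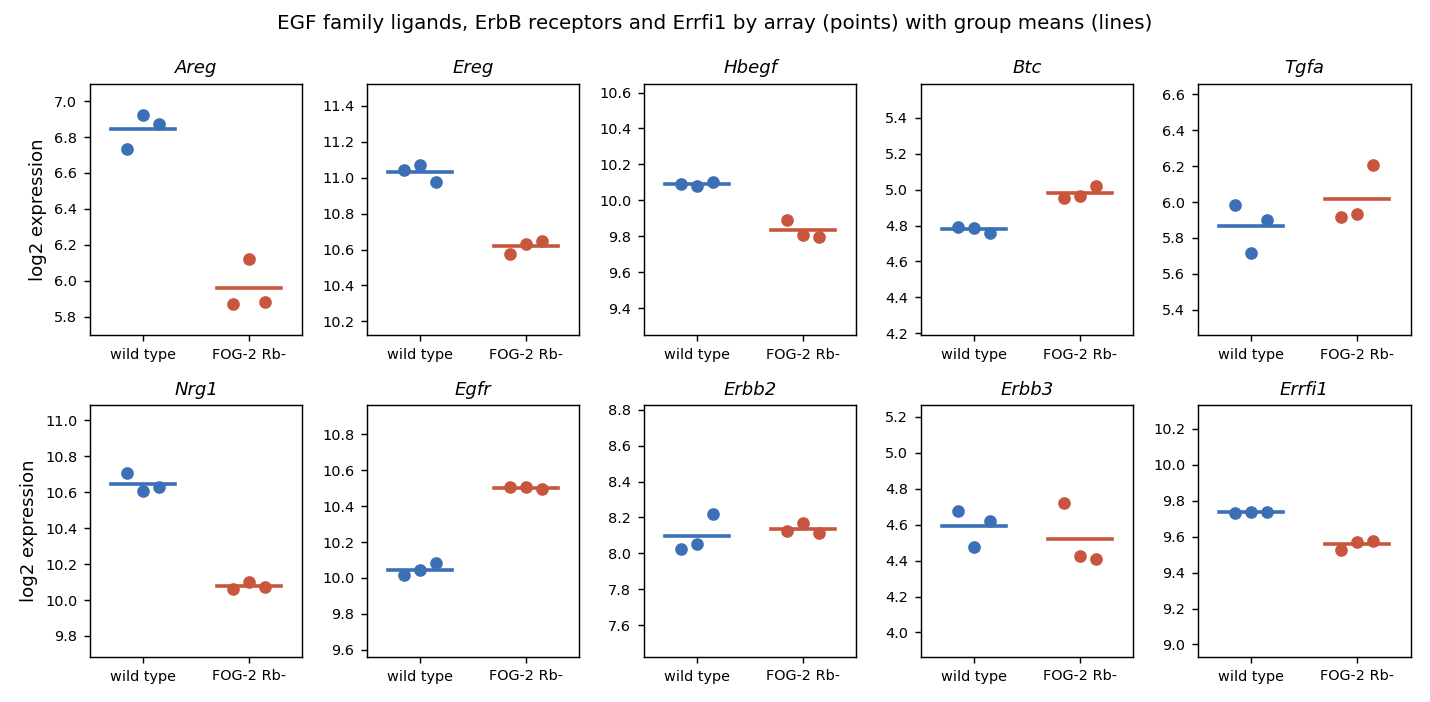
Log2 expression of the 10 genes in each array (points; blue wild type, red FOG-2 Rb-) with the group means as lines; every panel spans the same range on its y axis. The 3 FOG-2 Rb- arrays lie below the 3 wild type arrays for Areg, Ereg, Hbegf, Nrg1 and Errfi1 and above them for Egfr and Btc; for Tgfa, Erbb2 and Erbb3 the ranges of the genotypes overlap.

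Areg encodes amphiregulin, a ligand of EGFR, and had the largest difference of the 10 genes. Wild type arrays, in the order of replicates 1 to 3 as for every gene below, gave log2 expression of 6.73, 6.92 and 6.87, and FOG-2 Rb- arrays gave 5.87, 6.12 and 5.88. The lowest wild type array was well above the highest FOG-2 Rb- array. The mean went from 6.84 ± 0.10 down to 5.96 ± 0.14 (SD, n = 3 each), a 1.85-fold fall (log2 difference -0.89, SE 0.09, adjusted p = 0.000765).

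Ereg encodes epiregulin, which binds EGFR and ErbB4. Wild type arrays gave 11.04, 11.07 and 10.98 and FOG-2 Rb- arrays 10.58, 10.63 and 10.65. The genotypes were separated by more than the spread within either. The fall was 1.33-fold (log2 difference -0.41, SE 0.05, adjusted p = 0.00174).

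Hbegf encodes HB-EGF, the heparin-binding ligand of the family, which also binds EGFR and ErbB4. Its values were 10.09, 10.08 and 10.10 in the wild type, against 9.89, 9.81 and 9.80 in FOG-2 Rb-. The wild type arrays lay close together (SD 0.01, n = 3) and all 3 exceeded every FOG-2 Rb- array. The fall was small, 1.20-fold (log2 difference -0.26, SE 0.05, adjusted p = 0.0109).

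Nrg1 encodes neuregulin 1, which binds ErbB3 and ErbB4 and not EGFR. It measured 10.71, 10.61 and 10.63 in wild type arrays and 10.06, 10.10 and 10.07 in FOG-2 Rb- arrays. No wild type array came near the FOG-2 Rb- range. The fall was 1.48-fold (log2 difference -0.57, SE 0.05, adjusted p = 0.000399), the second largest in size among the 10 genes.

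Btc encodes betacellulin, another ligand of EGFR and ErbB4, and moved the other way. Wild type arrays gave 4.79, 4.79 and 4.76 and FOG-2 Rb- arrays 4.95, 4.96 and 5.02. The groups did not overlap, but all values lay below the median of each array, where background can make up much of a signal; background was not measured here. The rise was 1.15-fold (log2 difference 0.20, SE 0.04, adjusted p = 0.024). The call was lost without any 1 of the 6 arrays (adjusted p 0.0524 to 0.0889) and with an intensity trend in the variance prior (adjusted p = 0.127).

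Tgfa encodes TGF alpha, a ligand of EGFR alone. Its values were 5.98, 5.71 and 5.90 in the wild type, against 5.92, 5.93 and 6.20 in FOG-2 Rb-, and the groups overlapped. The log2 difference was 0.15 with a 95% interval of -0.09 to 0.40 (adjusted p = 0.375), so no change passed the test, and the interval leaves room for a rise of up to 0.40.

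Ereg, Areg and Btc lie next to each other on chromosome 5, after Epgn, which encodes the ligand epigen: in the RefSeq order of protein-coding genes 0 genes separate each from the next. Along this run Epgn had a log2 difference of 0.07 (adjusted p = 0.612), Ereg and Areg fell, and Btc rose. The values of Epgn, like those of Btc, lay below the median of each array. The called genes of this run did not share a direction, but the call of Btc was lost without any 1 array.

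The promoter windows of Areg and Btc are shown because the log2 differences of these neighbours had opposite signs. They are the 250 bases before the RefSeq gene start, from build GRCm38.p6, read 5′ to 3′ on the strand of the gene: Areg at chr5:91139349-91139598 on the plus strand and Btc at chr5:91402995-91403244 on the minus strand. Capitals mark matches to the motifs searched.
Areg: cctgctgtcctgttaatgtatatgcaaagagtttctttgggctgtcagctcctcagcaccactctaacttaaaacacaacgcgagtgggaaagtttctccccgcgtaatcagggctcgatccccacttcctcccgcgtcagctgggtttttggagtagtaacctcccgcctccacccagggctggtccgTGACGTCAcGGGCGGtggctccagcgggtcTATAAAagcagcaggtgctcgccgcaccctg
Btc: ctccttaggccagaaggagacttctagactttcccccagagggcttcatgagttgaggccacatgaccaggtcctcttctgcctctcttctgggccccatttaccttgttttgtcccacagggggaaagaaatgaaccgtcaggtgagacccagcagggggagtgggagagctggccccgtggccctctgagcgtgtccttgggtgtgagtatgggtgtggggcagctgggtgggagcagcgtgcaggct
The Areg window holds the cyclic AMP response element TGACGTCA, which starts 61 bases before the gene start, a GC box GGGCGG at 52 bases and a TATA motif TATAAA at 31 bases. The Btc window holds no match to any motif searched. On either strand TGACGTCA occurs in 1.55% of the 32851 promoter windows of the table, GGGCGG in 32.7% and TATAAA in 12.4%. The other motifs searched on both strands were AP-1 (TGANTCA, in 6.75% of windows), E2F (TTTCCCGC or TTTGGCGC, 1.3%) and ETS (CCGGAA, 12%). For GATA factors AGATAA or TGATAA was searched (16.6%), and for nuclear receptors AGGTCA (14%). Other forms of these motifs were not searched. A match is a stretch of letters and does not show that a factor binds there.

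Egfr, the receptor gene of the ligands that fell other than Nrg1, rose. It measured 10.01, 10.05 and 10.08 in wild type arrays and 10.51, 10.50 and 10.50 in FOG-2 Rb- arrays. All FOG-2 Rb- arrays exceeded all wild type arrays. Its mean went up from 10.05 ± 0.03 to 10.50 ± 0.01 (SD, n = 3 each), or 1.37-fold (log2 difference 0.46, SE 0.04, adjusted p = 0.000702).

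Erbb2 encodes the partner receptor without a ligand. Wild type arrays gave 8.03, 8.05 and 8.22 and FOG-2 Rb- arrays 8.12, 8.17 and 8.11, so that the FOG-2 Rb- values fell inside the wild type range. The log2 difference was 0.03 (95% interval -0.12 to 0.19, adjusted p = 0.774). Erbb3 encodes the neuregulin receptor, whose own kinase is weak. Its values were 4.68, 4.48 and 4.62 in the wild type, against 4.72, 4.42 and 4.41 in FOG-2 Rb-, values below the median of each array that overlapped between genotypes. The log2 difference was -0.07 (95% interval -0.31 to 0.16, adjusted p = 0.682).

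Errfi1 encodes Mig-6, a protein induced by EGFR signalling that binds the receptor and blocks its kinase. It measured 9.73, 9.74 and 9.74 in wild type arrays and 9.52, 9.57 and 9.58 in FOG-2 Rb- arrays. Every FOG-2 Rb- array was lower than every wild type array. The fall was 1.13-fold (log2 difference -0.18, SE 0.04, adjusted p = 0.0317). It did not pass without any 1 of the 6 arrays (adjusted p 0.0693 to 0.103), nor with each array centred on its median (adjusted p = 0.0705).

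The windows before the gene starts of Egfr, which rose, and Errfi1, which fell, are shown as the receptor and its inhibitor. Egfr lies at chr11:16751953-16752202 and Errfi1 at chr4:150853546-150853795, both on the plus strand of GRCm38.p6 in RefSeq, read 5′ to 3′ over 250 bases with motif matches in capitals.
Egfr: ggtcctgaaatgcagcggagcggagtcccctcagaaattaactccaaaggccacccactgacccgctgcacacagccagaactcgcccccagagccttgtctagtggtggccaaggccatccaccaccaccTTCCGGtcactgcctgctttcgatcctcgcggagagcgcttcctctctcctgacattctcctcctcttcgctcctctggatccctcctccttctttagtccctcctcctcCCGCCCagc
Errfi1: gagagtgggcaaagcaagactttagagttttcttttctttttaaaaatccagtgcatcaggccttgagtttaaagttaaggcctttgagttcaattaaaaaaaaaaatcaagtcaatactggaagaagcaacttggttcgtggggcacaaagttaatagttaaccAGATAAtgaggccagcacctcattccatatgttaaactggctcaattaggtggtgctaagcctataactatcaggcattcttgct
The Egfr window holds an ETS match 119 bases before the start and a GC box 9 bases before it, both on the opposite strand, and no TATA motif. The Errfi1 window holds 1 match to the letters searched, AGATAA for GATA factors, 85 bases before the start. Other forms of the GATA motif, such as TGATAG, were not searched. The share of G and C was 60.8% in the Egfr window, 38% in that of Errfi1, 57.2% in that of Areg and 59.6% in that of Btc. RefSeq promoter entries matched 6 of the 10 genes, 5 of them with a window at the gene start: these 4 and Erbb2. Errfi1 had 2 entries, and only the 1 at the gene start is shown and was searched.

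**Figure D2:**
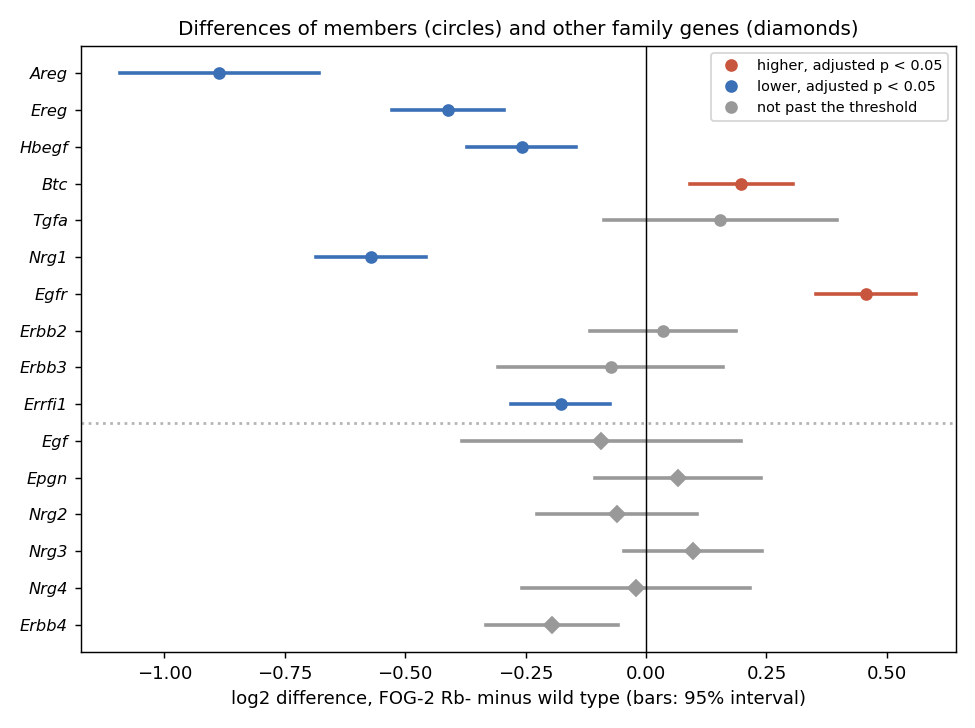
Log2 differences, FOG-2 Rb- minus wild type (x axis), with their 95% intervals from limma for the 10 genes (circles) and 6 other genes of the family (diamonds); red marks higher, blue lower and grey not past the threshold. Areg (-0.89) and Nrg1 (-0.57) lie farthest to the left and Egfr (0.46) farthest to the right, and the intervals of the 5 other ligands of the family cross 0.

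The rest of the family did not pass the test. Of the ligand genes Egf, Epgn, Nrg2, Nrg3 and Nrg4 and the receptor gene Erbb4, 0 of 6 were called, with log2 differences from -0.20 to 0.10. Erbb4, which binds neuregulins and several EGFR ligands, was at 3.97, 4.13 and 3.97 in the wild type and at 3.82, 3.82 and 3.84 in FOG-2 Rb-. Its groups did not overlap (log2 difference -0.20, adjusted p = 0.062), and its mean lay in the lowest 25% of rows. Egf itself had a log2 difference of -0.09 (95% interval -0.38 to 0.20, adjusted p = 0.676). Its values, like those of Epgn and Nrg3, lay below the median of each array.

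**Figure D3:**
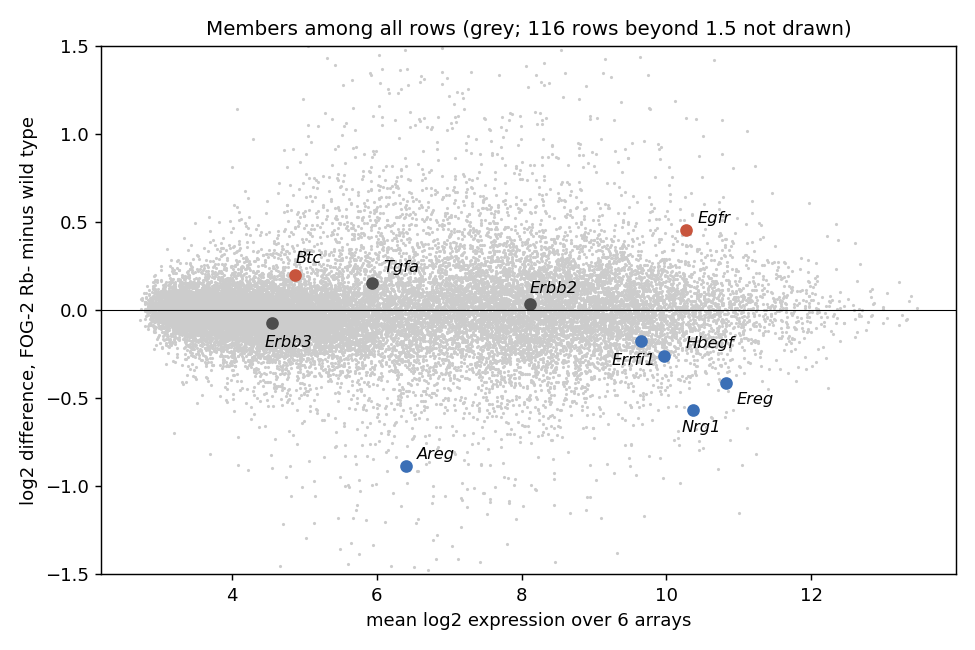
Log2 difference, FOG-2 Rb- minus wild type (y axis), against mean log2 expression over the 6 arrays (x axis) for all 23748 rows (grey; 116 rows beyond 1.5 in either direction are not drawn) and the 10 genes (red higher, blue lower, black not past the threshold). Ereg, Nrg1, Egfr and Hbegf stand at the right, while Btc and Erbb3 lie at the left, below the median of each array.

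The 3 named rows whose profile over the 6 arrays, centred on its mean, lay nearest to that of Areg by Euclidean distance were P2ry10b (distance 0.0934), Ace (0.0969) and Tnmd (0.107). P2ry10b encodes a receptor of the purinergic family, Ace the angiotensin-converting enzyme and Tnmd tenomodulin, a membrane protein of tendon cells. Their log2 differences were -0.95, -0.83 and -0.91. Like Areg, each had its highest FOG-2 Rb- value in replicate 2. The rows were picked by these same values, so both likenesses follow from the choice and only describe the 6 arrays.

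Some genes that act in the release of the ligands rose and others fell. Of 13 measured genes of ligand shedding, 4 rose, 2 fell and 7 did not pass, with a median log2 difference of 0.04. Adam12, a metalloproteinase that can cleave HB-EGF, was at 8.21, 8.23 and 8.12 in the wild type and at 9.36, 9.37 and 9.43 in FOG-2 Rb-. This was a 2.29-fold rise (log2 difference 1.20, SE 0.05, adjusted p = 2.56e-05), the largest in the list. Adam10, the main protease for betacellulin and EGF, rose 1.34-fold and Adam9 1.35-fold. Adam17, the main protease for amphiregulin, epiregulin, HB-EGF and TGF alpha, had a log2 difference of 0.04 (adjusted p = 0.686). Cd9, a tetraspanin that associates with the membrane form of HB-EGF, fell 1.70-fold, from 10.55 ± 0.07 to 9.79 ± 0.04 (SD, n = 3 each). Nrd1, which encodes nardilysin, was the other gene that fell, and its call was lost without any 1 array, which leaves 1 fall.

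Genes that restrain the receptors or act in their turnover moved both ways. Of 22 measured genes of receptor restraint and turnover, 5 rose, 4 fell and 13 did not pass, with a median log2 difference of 0.03. Lrig1, a membrane protein that promotes the breakdown of ErbB receptors, fell 1.29-fold (adjusted p = 0.00576), and Eps15, an endocytic adaptor of EGFR, fell 1.28-fold (adjusted p = 0.00328). Socs3, a suppressor of cytokine signalling, rose 1.47-fold (adjusted p = 0.00677), and Stam2, a sorting protein for internalised receptors, rose 1.20-fold (adjusted p = 0.0181). Leaving out FOG-2 Rb- replicate 1 reduced the 5 rises to 1; leaving out its replicate 3, or replicate 2 of the wild type, reduced them to 2, and each remaining array to 3. Stam2 lost its call when replicate 1 or 2 of the wild type, or FOG-2 Rb- replicate 1 or 3, was left out (adjusted p 0.054 to 0.0662).

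Of 12 measured genes of the MAP kinase relay, from a list of 18 whose other genes were not analysed here, 2 rose, 0 fell and 10 did not pass, with a median log2 difference of 0.02; 18% of all rows passed. Map2k1, the kinase MEK1, rose 1.23-fold (adjusted p = 0.0216) and Gab1, a docking protein of EGFR, 1.13-fold (adjusted p = 0.0409). Gab1 lost its call without any 1 array (adjusted p 0.0599 to 0.117), and Map2k1 lost its call without any FOG-2 Rb- array. Without wild type replicate 3, Ksr1, a scaffold of the relay, passed in place of Gab1. Of 13 measured genes of the PI3 kinase and AKT relay, out of 15 listed, 1 rose, 1 fell and 11 did not pass, with a median of 0.07. Pik3cb, a catalytic subunit of PI3 kinase, fell 1.75-fold (log2 difference -0.81, SE 0.07, adjusted p = 0.00033), and Gab2, a docking protein, rose 1.51-fold (log2 difference 0.59, SE 0.08, adjusted p = 0.00281). Without wild type replicate 1, 2 genes of this list fell.

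Several genes that ERK signalling induces fell, and others rose. Of 12 measured inhibitors of ERK signalling, from a list of 13, 4 fell, 2 rose and 6 did not pass, with a median log2 difference of -0.04. Most are feedback genes, but Rasa1 and Nf1 act on Ras and are not. Rasa1 was among the falls (1.33-fold, adjusted p = 0.00184), and Nf1 did not pass. Dusp6, an ERK phosphatase, was at 11.11, 11.08 and 11.12 in the wild type and at 10.48, 10.54 and 10.56 in FOG-2 Rb-. It fell 1.49-fold (adjusted p = 0.000309), and its relative Dusp5 fell 1.60-fold (adjusted p = 0.000161). Of the Sprouty genes, whose proteins restrain receptor kinase signalling, Spry4 fell 1.45-fold (adjusted p = 0.00379), Spry1 rose 1.48-fold (adjusted p = 0.000803), and Spry2 had a log2 difference of -0.10 (adjusted p = 0.266). The 2 rises became 1 without any array other than wild type replicate 3.

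Of 18 measured transcription targets of ERK, 6 fell, 2 rose and 10 did not pass, with a median log2 difference of -0.13. Ier3, an early response gene, fell 1.53-fold (adjusted p = 0.000467), and Etv4, an ETS factor, fell 1.52-fold (adjusted p = 0.00111). The AP-1 genes Fosb and Fos rose 1.56-fold (adjusted p = 0.000212) and 1.49-fold (adjusted p = 0.000255). Fos was at 9.89, 9.88 and 9.94 in the wild type and at 10.47 in each FOG-2 Rb- array. The AP-1 gene Fosl1 fell 1.28-fold (adjusted p = 0.00541), and Jun and Junb had log2 differences of -0.23 (adjusted p = 0.105) and -0.17 (adjusted p = 0.115). With 1 array left out, 4 or 5 of the 18 fell and 2 rose.

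**Figure D4:**
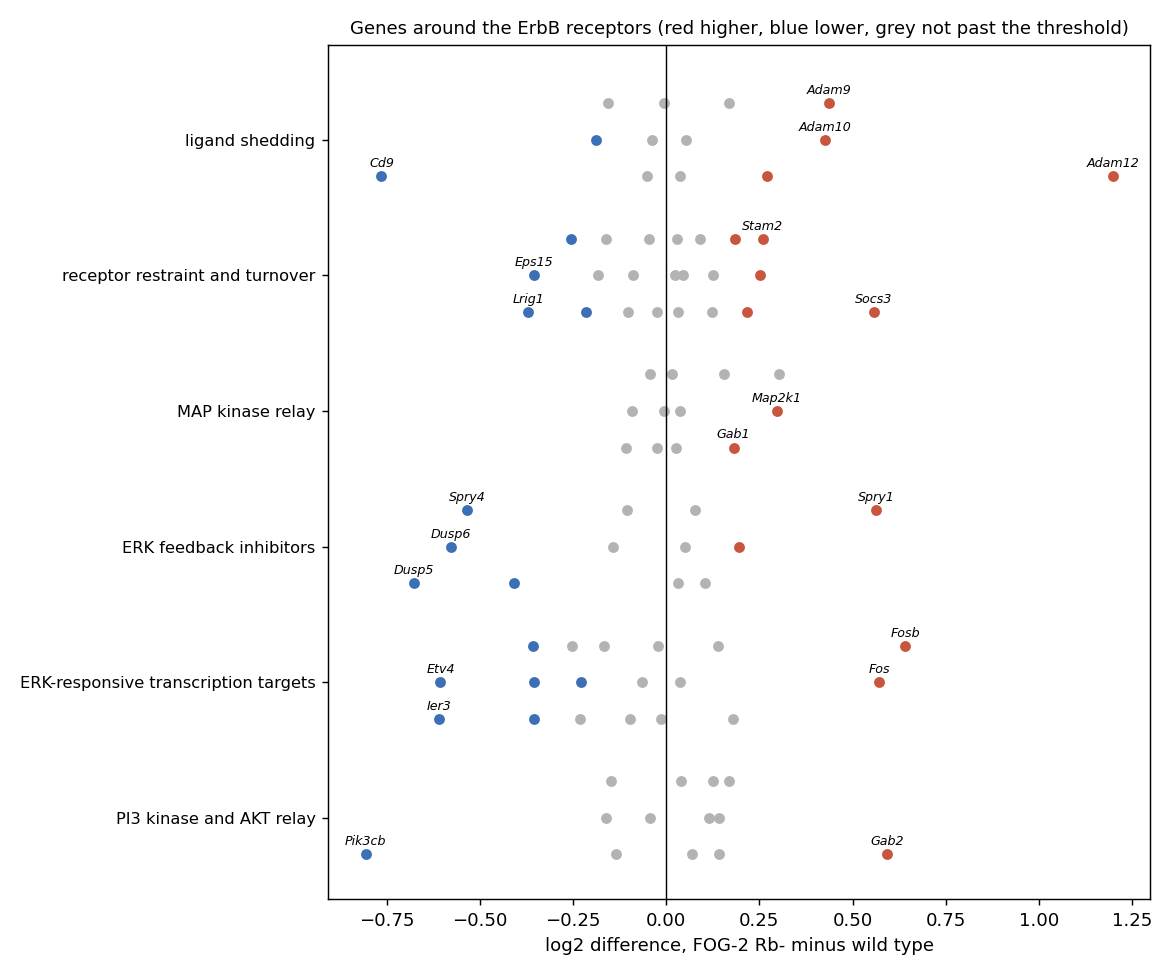
Log2 difference, FOG-2 Rb- minus wild type (x axis), of each measured gene in 6 lists around the ErbB receptors (rows; vertical offsets within a row only separate the points), with red for higher, blue for lower and grey for not past the threshold. Adam12 (1.20) lies farthest to the right and Pik3cb (-0.81) farthest to the left, and each list except the MAP kinase relay holds genes called in both directions.

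Of 12 measured mesothelium markers 9 rose and 1 fell. The 1 fall was of Msln, which encodes mesothelin (log2 difference -1.23, 2.35-fold, adjusted p = 4.77e-05). The summed linear level of the list was 913.2 to 966.7 in wild type and 2780 to 2914 in FOG-2 Rb- arrays. Such a sum gives most weight to the brightest genes. In FOG-2 Rb- arrays these were Aldh1a1 (log2 difference 2.69) and Upk1b (3.27), so the sum alone does not show a general rise of the markers. The median log2 difference over the 12 markers was 0.83. That list was drawn up with earlier results of these arrays known. Of 10 epithelial markers 0 rose and 1 fell (sums 249.5 to 279.2 and 260.4 to 273.5), with Epcam at a mean log2 of 4.15 and 4.17 in the 2 genotypes. Of 6 measured Schwann and glial markers 1 rose and 0 fell (sums 238 to 251.8 and 236.7 to 251.5), and Sox10, the defining factor of that lineage, had means of 5.07 and 4.96. Of 7 neuronal markers 1 rose and 2 fell (841.6 to 861.4 and 883.8 to 917.9). Of 7 endothelial markers Kdr alone passed, as higher (199.04 to 215.4 and 354.6 to 373.4). The largest log2 difference in that list was 2.37 and the median 0.04, so these sums too do not show a general rise. Of 6 measured macrophage markers 2 rose (367.5 to 383.7 and 478.6 to 494.8), and of 6 smooth muscle markers 3 rose and 2 fell (13552 to 13677 and 14372 to 14739). Acta2 lost its call as a smooth muscle marker without any 1 array. Without replicate 2 or 3 of either genotype Des lost its call too, and the rises became 1 among smooth muscle and 1 among macrophage markers. The neuronal rise, of Map2, did not pass when FOG-2 Rb- replicate 1 or replicate 2 of the wild type was left out. The 1 rise among Schwann and glial markers, of Mbp (adjusted p = 0.0435), was lost without any 1 array, and the 1 fall among epithelial markers without FOG-2 Rb- replicate 1 or 3. The part of these cells in the differences of the 10 genes was not tested, and in such bulk RNA fewer cells of a type and less RNA per cell cannot be told apart.

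The authors' deposited table, with a mutant to wild type ratio and an unadjusted p-value for each gene, lists Areg at a ratio of 0.541 (p = 0.000902) and Egfr at 1.37 (p = 2e-05).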

How the data were processed

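Affymetrix whole-transcript labelling was used on total RNA of 3 samples per genotype. The authors deposited log2 values per gene and array, made with RMA and Partek per the submitters' processing notes; RMA corrects background, normalizes between arrays and summarises probes, which compresses differences of dim genes. Tool versions, the probe definition and the build: not given in the sources used here. The authors also deposited a p-value, a linear ratio and a signed fold change score per gene for mutant against WT; on the log2 scale this ratio was within 7.18e-06 of the group difference computed here for every row. Scanner files were not used here. All 23748 rows were fitted with limma 3.58.1 in R 4.3.3 (genotype as the only term, two-sided), with Benjamini-Hochberg adjustment over all rows and a threshold of 0.05; the fit was tested on simulated data. Intervals are 95% intervals of limma. Depth does not apply to arrays, and their number, 3 per genotype, limits the precision.

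The members and lists were chosen with earlier results of these data known. List genes were matched by platform symbol, which 23111 rows have, and the others were not analysed here. The naming rule takes all members, the 6 other family genes, up to 4 called genes with the largest difference per pathway list, and the 3 rows nearest to the member with the largest difference, predicted genes left out. Genes named beyond it (Adam17, Nrd1, Ksr1, Spry2, Rasa1, Nf1, Fosl1, Jun, Junb and the markers) were chosen after their values were seen. Deviations of same-numbered samples from their group means correlated at 0.031, 0.018 and 0.0021 for replicates 1 to 3. No shared shift of same-numbered samples was thus seen over all rows. This cannot tell whether the samples were paired, which the labels do not state.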

Additional observations from a re-analysis of the deposited data

How the results depend on the processing

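In 13 alternatives (each array left out, a replicate block, an intensity trend or a robust variance prior, arrays centred, quantile normalization anew, no dim rows, no variance moderation), Areg, Ereg, Hbegf, Nrg1 and Egfr kept their direction and passed the threshold in all. Of the 130 combinations of a member and an alternative, 113 kept side and direction, 16 lost the call (all in Btc or Errfi1) and 1 changed sign. With 1 array left out the members higher were 1 in place of 2, those lower 4, and the calls over the array 2805 (without FOG-2 Rb- replicate 3) to 3446 in place of 4281. With the replicate block 5 members passed, 1 higher and 4 lower, and 3181 rows. Whether the replicate numbers pair the samples is not stated. The intensity trend left 1 member higher, and centred arrays 4 lower. Signs that turned all belong to genes not past the threshold, with 1 array left out: Erbb2 ranged from -0.0021 to 0.096, Egf from -0.20 to 0.0018, Nrg2 from -0.098 to 0.0076 and Nrg4 from -0.086 to 0.087 on the log2 scale. The cause was not tested. Among genes around the receptors, Gab1 and Map2k1 lost their calls with the block (adjusted p = 0.0979 and 0.0611), and Map2k1 without variance moderation (0.0649). Signal over background was not available, which limits what Btc, Erbb3, Erbb4, Epgn, Egf and Nrg3 can show.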
